A study of Rattus norvegicus with 6 samples.

Results

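The genes described here encode the subunits of the proteasome, in the diaphragm of 3 normal and 3 diabetic rats. They were taken by name: probe sets assigned to exactly 1 gene whose symbol begins with Psma, Psmb, Psmc, Psmd or Psme and ends in a number. The rule found 39 probe sets for 36 genes, out of 15866 probe sets and 10411 genes on the array, and it used no measured value. All 39 probe sets were bright enough to be tested. RefSeq lists 43 protein-coding rat genes with such symbols. The other 7 (Psma8, Psmb6, Psmb11, Psmc6, Psmd12, Psmd14 and Psme3) had no probe set of their own in the annotation used here.

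All 6 rats were male Wistar rats, injected intraperitoneally at 8 weeks of age and studied 4 weeks later after a night without food. The diabetic group received 60 mg/kg streptozotocin, a toxin of the insulin-producing islet cells, in citrate buffer, and the normal group received the buffer only. The diabetic rats were given no insulin, so effects of the toxin itself and of lost insulin cannot be told apart in this model. RNA of the left costal hemidiaphragm, the muscle sheet that drives breathing, was hybridised to 1 Affymetrix RAE 230A array per rat, and a probe set's value is its MAS 5.0 signal, a linear intensity with no unit.

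The proteasome is the barrel-shaped protease that degrades ubiquitin-tagged proteins. Its 20S core is built from rings of alpha subunits, which form the gate, around rings of beta subunits, some of which carry the cutting sites. The 19S cap holds a ring of ATPases (Psmc), which unfold the substrate and thread it in, and non-ATPase subunits (Psmd) of a base and a lid, which bind and remove ubiquitin. Interferon replaces the catalytic beta subunits by Psmb8, Psmb9 and Psmb10, which make the immunoproteasome and favour peptides for antigen presentation. Other activators (Psme) can take the place of the cap. In skeletal muscle the ubiquitin-proteasome pathway degrades contractile proteins during wasting, and lack of insulin is a known setting for it.

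Promoters of 4 members are shown here because their genes lay on opposite sides of the comparison: Psme4 and Psmd8 rose, and Psmb10 and Psme2 are interferon-responsive members that hold a motif match and whose mean signals were lower in diabetic muscle. Psmb9 and Psme1, with larger negative differences, held no match to the interferon-stimulated response element and are not shown. Psmb8 held a match and had a negative difference, and is not shown either. Each is the 250 bases before the annotated start in RefSeq, build GRCr8, written 5′ to 3′ on the strand of the gene. Capitals mark a match to the core of the antioxidant response element in Psme4 and to the interferon-stimulated response element in Psmb10 and Psme2. Psmd8 had no match to the 4 motifs searched.
Psme4 (chr14:108706393-108706642, + strand): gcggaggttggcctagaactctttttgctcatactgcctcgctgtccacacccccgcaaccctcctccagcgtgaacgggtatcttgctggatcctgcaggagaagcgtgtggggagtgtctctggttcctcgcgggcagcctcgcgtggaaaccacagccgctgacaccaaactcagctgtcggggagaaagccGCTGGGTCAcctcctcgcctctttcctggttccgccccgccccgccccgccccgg
Psmd8 (chr1:93608690-93608939, - strand): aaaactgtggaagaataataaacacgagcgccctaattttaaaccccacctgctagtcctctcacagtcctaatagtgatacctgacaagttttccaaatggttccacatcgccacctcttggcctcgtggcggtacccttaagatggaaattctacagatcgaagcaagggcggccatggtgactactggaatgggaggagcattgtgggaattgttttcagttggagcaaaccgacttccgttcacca
Psmb10 (chr19:50743293-50743542, - strand): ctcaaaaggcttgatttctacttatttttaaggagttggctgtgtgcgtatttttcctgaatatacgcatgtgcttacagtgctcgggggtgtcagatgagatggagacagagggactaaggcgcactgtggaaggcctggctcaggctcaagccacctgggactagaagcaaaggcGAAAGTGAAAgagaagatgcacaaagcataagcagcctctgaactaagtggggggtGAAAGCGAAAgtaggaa
Psme2 (chr15:33052752-33053001, - strand): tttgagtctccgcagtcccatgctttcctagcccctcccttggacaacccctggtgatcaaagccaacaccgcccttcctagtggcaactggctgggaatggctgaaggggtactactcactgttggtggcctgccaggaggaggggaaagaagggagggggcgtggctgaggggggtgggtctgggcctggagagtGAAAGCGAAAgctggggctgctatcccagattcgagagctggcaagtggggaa

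Expression of 6 of the 36 genes was higher in diabetic diaphragm and expression of none was lower (limma, Benjamini-Hochberg adjusted p under 0.05 over all 9519 probe sets tested). The 6 were Psmd8, Psmd11, Psmd3 and Psmd13 of the lid, the alpha subunit Psma4, and Psme4, an activator of the core. Among all 7080 genes tested, 3.46% were called higher and 3.55% lower. The shares over all genes given here were not matched to the members for signal level. At an unadjusted p under 0.05, 18 members were higher and 2 were lower, where all genes had 12.8% higher and 11.9% lower. Counted as probe sets, 8 of 39 members were higher against 3.30% of all. All 3 diabetic arrays lay above all 3 normal arrays for 18 of the 36 genes and below them for 3, whereas over all genes these shares were 15.9% and 14.9%. The median log2 fold change was 0.34 for the members and 0.01 for all genes tested.

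**Figure D1:**
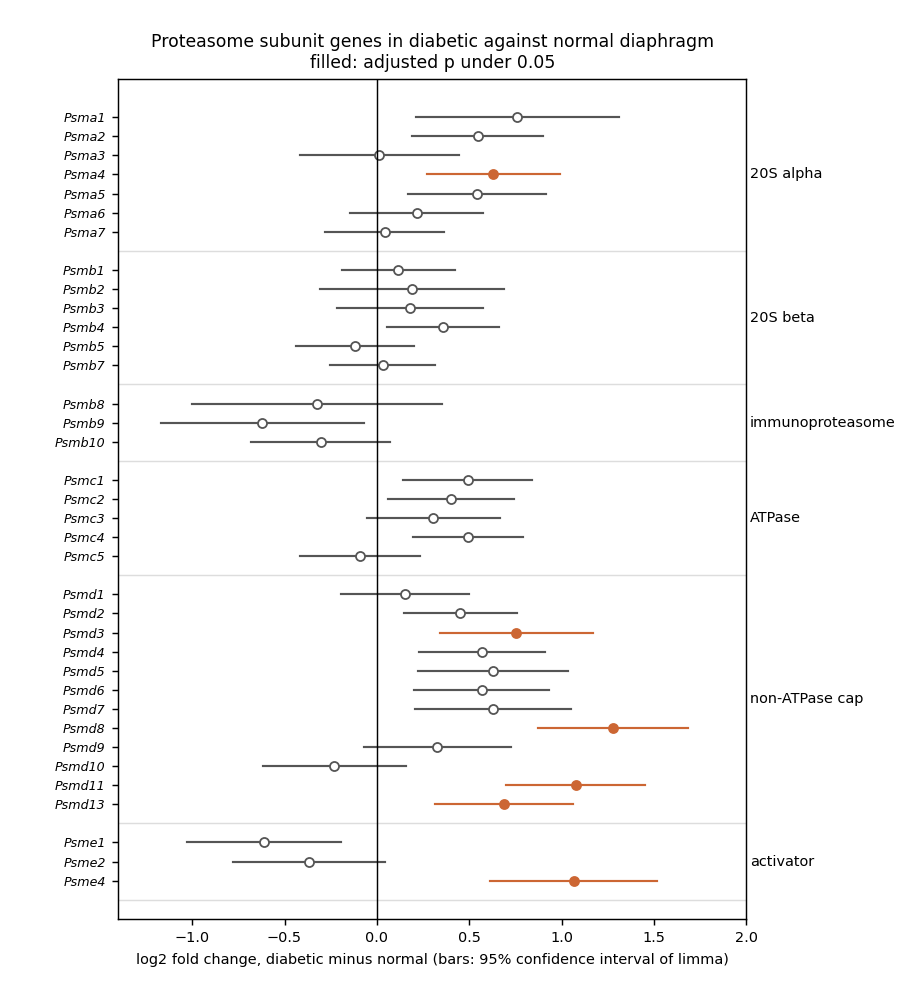
The horizontal axis is the log2 fold change (diabetic minus normal, 3 rats each) of the 36 proteasome genes, 1 row per gene and grouped by class, with 95% confidence intervals of limma as bars and filled points for an adjusted p under 0.05. The 6 filled points lie right of 0, and the 3 immunoproteasome genes with Psme1 and Psme2 lie left of it.

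Fold changes were not even across classes. The median log2 fold change was 0.72 for the 6 measured Psmd genes of the lid and 0.54 for the 7 alpha genes. For the 3 base genes it was 0.45, for the 5 ATPases 0.40 and for the 3 assembly chaperones of the cap 0.33. It was 0.15 for the 6 constitutive beta genes and -0.32 for the 3 immunoproteasome genes. The 12 non-ATPase cap genes together had a median of 0.60, and the 3 activators, 1 of them positive, had -0.37. The test passed 4 of 6 lid genes and 1 of 7 alpha genes, and no gene of the base, the ATPases, the constitutive beta subunits or the immunoproteasome. At an unadjusted p under 0.05 the base had 2 genes higher, the ATPases 3 and the constitutive beta subunits 1, and the immunoproteasome had 1 lower. The differences between classes are descriptions and were not tested. Since the tissue was taken whole, fewer cells of a type and less RNA per cell cannot be told apart.

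The single arrays were then compared. Of the 39 probe sets, 23 had their highest signal on diabetic rat 3 and 17 had their lowest on normal rat 3. Matching counts over all probe sets are not given here. Without diabetic rat 3 the number of member probe sets called higher was 4 in place of 8, while that of all probe sets was 133 in place of 314. Leaving out any other single array gave 5 to 8 member probe sets. The median log2 fold changes without diabetic rat 3 were 0.39 for alpha, 0.32 for ATPase, 0.51 for all cap genes, 0.04 for beta and -0.21 for immunoproteasome genes. The median deviation of the lid from the normal mean was 0.71, 0.80 and 0.87 on the diabetic arrays on the log2 scale, against -0.05, -0.04 and 0.11 on the normal arrays. Diabetic medians also lay above all normal ones for the base (0.46, 0.46 and 0.44), the alpha subunits (0.26, 0.39 and 0.59), the ATPases (0.23, 0.21 and 0.55) and the cap chaperones (0.14, 0.35 and 0.49). The median of all genes tested moved little, from -0.01 to 0.06 on the diabetic arrays.

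**Figure D2:**
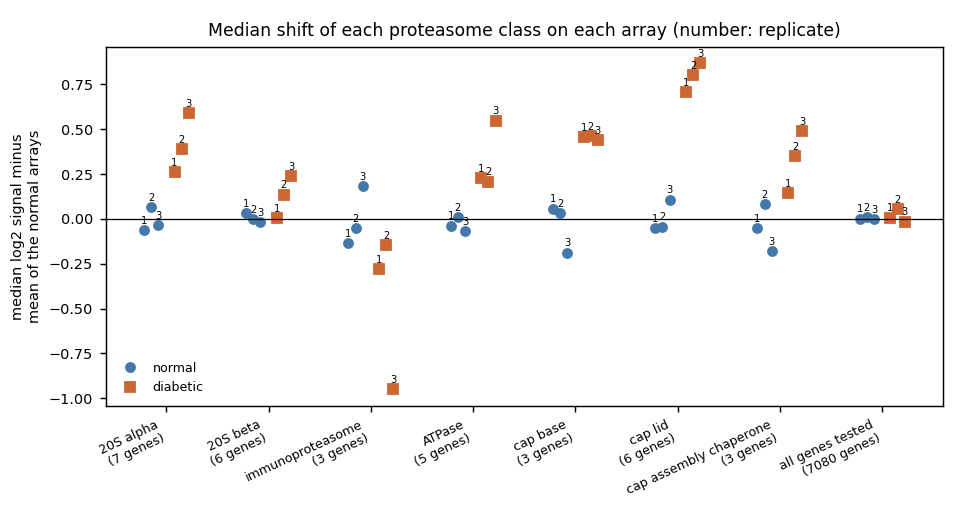
Each point is 1 array, numbered by replicate, and the vertical axis is the median over a class of the log2 signal minus the mean of the 3 normal arrays. The diabetic arrays of the lid sit at 0.71 to 0.87, while the immunoproteasome has its lowest point, -0.95, on diabetic rat 3.

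The lid removes the ubiquitin chain and steadies the cap on the core. All 6 of its measured Psmd genes had diabetic signals above every normal signal. Over all genes tested, 15.9% had all diabetic arrays above all normal ones. Sem1, a lid subunit without a Psmd symbol, is counted below with the receptors and shuttles and went the other way. It read 2238.4, 2670.9 and 2522.3 in normal and 2005.5, 1823.1 and 2196.9 in diabetic rats. Its log2 difference of -0.30 did not pass (limma adjusted p = 0.24). Psmd8 (Rpn12), which completes lid assembly, had signals of 1109.1, 887.4 and 1269.7 in normal and 2175.1, 2814.9 and 2916.1 in diabetic muscle. The lowest diabetic signal was well above the highest normal one. This is a 2.42-fold rise, with a log2 fold change of 1.28 (SE 0.18, adjusted p = 0.0041), the largest among the members when each gene is taken by its brightest probe set.

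Psmd11 (Rpn6) links the lid to the core and holds the assembled particle together. Its brighter probe set read 1978.1, 2162.5 and 2020.8 in normal rats and 3666.7, 4048.3 and 5465.2 in diabetic rats, with the highest value in rat 3. The rise was 2.14-fold, a log2 fold change of 1.08 (SE 0.17, adjusted p = 0.0060). A second, dimmer probe set read 1328.8, 1893.7 and 1244.0 against 2409.6, 2052.1 and 2682.0. Here too the groups did not overlap, but the difference of 0.69 did not pass (adjusted p = 0.056), so the probe sets of this gene differ in their call.

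Psmd3 (Rpn3) and Psmd13 (Rpn9) are scaffold subunits of the lid. For Psmd3 the signals were 469.4, 414.7 and 589.3 in normal and 694.0, 923.8 and 859.6 in diabetic rats, a 1.68-fold rise (log2 fold change 0.75, adjusted p = 0.040). For Psmd13 they were 622.4, 587.9 and 776.5 against 1129.8, 943.2 and 1119.5, a 1.61-fold rise (log2 fold change 0.69, adjusted p = 0.037). Neither gene had overlapping groups. Both calls stood near the threshold. When single arrays were left out in turn, Psmd3 missed it without diabetic rats 2 or 3 or normal rats 1 or 2 (adjusted p up to 0.13), and Psmd13 missed it in all 6 cases but that of normal rat 3 (up to 0.11). Psmd8 and Psmd11 passed in all 6 cases. The remaining Psmd genes of the lid, Psmd6 (Rpn7) and Psmd7 (Rpn8, the partner of the deubiquitinase subunit), had log2 differences of 0.57 and 0.63. They did not pass (adjusted p = 0.067 and 0.078).

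The base recognises ubiquitin chains and holds the ATPase ring. Psmd4 (Rpn10), a ubiquitin receptor, had a log2 difference of 0.57 just outside the threshold (adjusted p = 0.053). The difference was 0.45 for the scaffold Psmd2 (adjusted p = 0.079) and 0.15 for its relative Psmd1 (adjusted p = 0.60). None of the 3 passed the test. Psmd5, Psmd9 and Psmd10 are chaperones that help the base to assemble and leave the finished particle. Psmd5 read 594.2, 724.1 and 543.5 in normal and 788.3, 1106.5 and 994.3 in diabetic rats, which did not overlap, but its difference of 0.63 did not pass (adjusted p = 0.068). Psmd9 had a difference of 0.33 (adjusted p = 0.30) and Psmd10 one of -0.23 (adjusted p = 0.47).

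The ATPases had a smaller median log2 difference (0.40) than the Psmd genes of the lid (0.72). Of the 5 measured, 4 had positive log2 differences, and 3 (Psmc1, Psmc2 and Psmc4) had no overlap between the groups. Over all genes tested, 3597 differences were positive and 3483 negative, and 15.9% had all diabetic arrays above all normal ones. Psmc4 (Rpt3) had the largest, with signals of 2023.2, 1959.4 and 1851.3 in normal and 2708.3, 2686.5 and 2805.6 in diabetic rats. The log2 difference was 0.49, with little spread within either group, and missed the threshold (adjusted p = 0.056). The lowest was that of Psmc5 (Rpt6), at -0.09 (95% confidence interval -0.42 to 0.23).

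The alpha subunits form the gate of the core. Psma4, the alpha subunit whose tail closes the gate, read 1360.1, 1695.5 and 1221.5 in normal and 2341.3, 2103.6 and 2125.2 in diabetic rats. The groups did not overlap and the rise was 1.54-fold (log2 fold change 0.63, adjusted p = 0.045). The call was lost in all leave-one-out cases but that of normal rat 2, with an adjusted p of up to 0.13. Psma1 had the larger log2 difference, 0.76, but one normal rat lay within the diabetic range: its signals were 1592.3, 2745.8 and 1311.2 in normal and 3249.7, 2606.2 and 3296.8 in diabetic rats (adjusted p = 0.096). Without normal rat 2 its difference was 1.07 (adjusted p = 0.016). All 7 alpha genes had positive differences, the lowest being 0.01 for Psma3 (95% confidence interval -0.42 to 0.44). Over all genes tested, 3597 were positive and 3483 negative. A probe set that Psma3 shares with Psma3l had a difference of 0.32 with no overlap between the groups (adjusted p = 0.27). Psma2 and Psma5 had diabetic signals above all normal signals, with differences of 0.55 and 0.54. RefSeq lists 44 pseudogenes named after proteasome subunits, for 13 of the 36 genes, and whether their transcripts reach these probe sets was not tested.

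**Figure D3:**
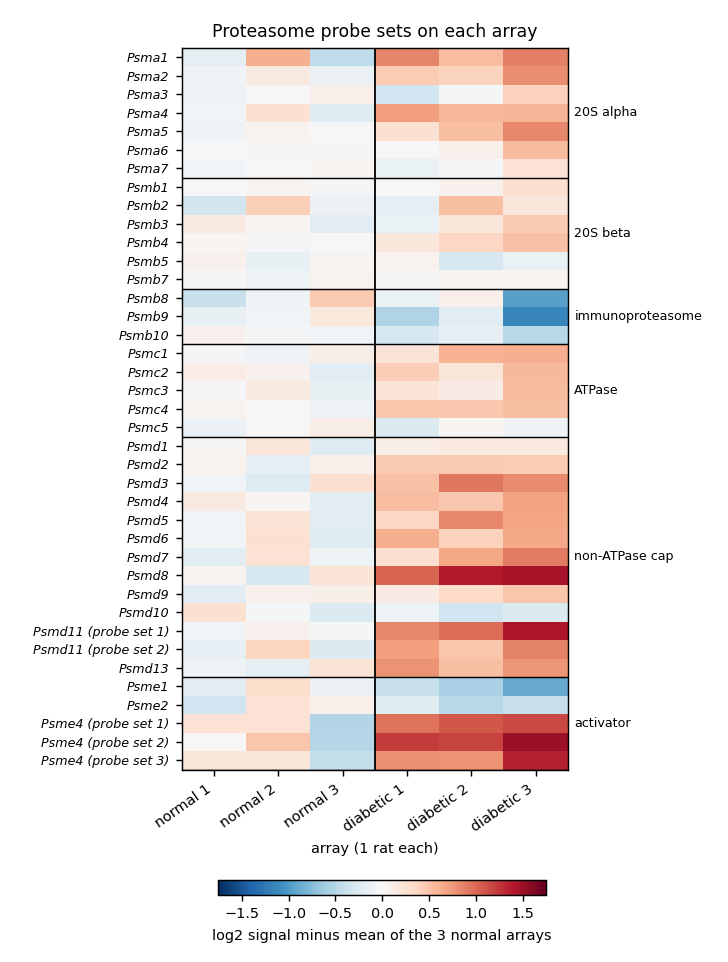
Rows are the 39 proteasome probe sets by class, columns the 6 arrays, and colour gives the log2 signal minus the mean of the 3 normal arrays. Red prevails on the diabetic arrays for the cap and for Psme4, and blue for the immunoproteasome, Psme1 and Psme2, deepest on diabetic rat 3 except for Psme2, which was lowest on diabetic rat 2.

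Of the constitutive beta subunits, among them those with the cutting sites, none passed the test. The catalytic subunit Psmb5 (chymotrypsin-like site) read 6063.0, 5294.3 and 5972.7 in normal and 5996.8, 4726.5 and 5298.1 in diabetic rats, a log2 difference of -0.12 (95% confidence interval -0.44 to 0.20). Psmb7 (trypsin-like site) lay between 5750.7 and 6425.4 in all 6 rats, with a difference of 0.03 (-0.25 to 0.32). These intervals leave room for modest changes either way. Psmb6 (caspase-like site) was measured only through a probe set that it shares with Psmb6l1, where the difference was -0.09 (-0.44 to 0.26). The largest positive difference in this class was 0.36, for Psmb4, a non-catalytic subunit, whose groups did not overlap (adjusted p = 0.15).

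The 3 immunoproteasome genes lay on the other side of 0. Psmb9 (LMP2) read 279.6, 296.4 and 348.3 in normal and 213.8, 267.8 and 138.9 in diabetic muscle, with no overlap and a log2 difference of -0.62 (95% confidence interval -1.17 to -0.07, adjusted p = 0.16). Psmb10 (MECL-1) read 381.6, 354.7 and 348.2 against 297.8, 326.3 and 257.3, again with no overlap, and a difference of -0.30 (adjusted p = 0.30). Psmb8 (LMP7) read 183.6, 228.0 and 328.6 against 221.4, 256.0 and 124.0, with overlapping groups and a difference of -0.32 (adjusted p = 0.57). None of the 3 passed the test, and at an unadjusted p under 0.05 only Psmb9 would have.

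The size of these differences varied with single arrays. Psmb8 and Psmb9 had their highest signal on normal rat 3, at 328.6 and 348.3. All 3 genes had their lowest signal on diabetic rat 3, and without it the log2 differences were -0.36 for Psmb9, -0.21 for Psmb10 and -0.01 for Psmb8. The other diabetic signals of Psmb9 and Psmb10 still lay below every normal one. The log2 ratio of Psmb10 to its constitutive counterpart Psmb7 was lower on all 3 diabetic arrays than on any normal array, at -0.30, -0.18 and -0.54 relative to the normal mean. The other pairs, Psmb8 to Psmb5 and Psmb9 to the shared Psmb6 probe set, overlapped between groups, with mean log2 differences of -0.21 and -0.53. The leukocyte markers, summed over 20 genes, ran from 12446 to 14017 in normal rats and from 10992 to 14765 in diabetic rats, and the lowest sum was again that of diabetic rat 3. That order rested on Cd74: without it, a choice made after seeing the data, the sums were 8896 to 9826 in normal and 9197 to 11940.2 in diabetic rats, and normal rat 1 was lowest. Lyz2 made up a large part of these smaller sums, at 3634.2 to 4385.0 in normal and 3948.7 to 4928.9 in diabetic rats. Of these 20 genes 17 were tested and none was called (1 higher at an unadjusted p under 0.05), 11 had positive log2 differences with a median of 0.11 over the 17, and the T-cell markers Cd3d and Cd8a with the myeloid marker Itgam lay below the filter. The part of leukocytes in the lower immunoproteasome signals was not tested.

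Among the activators Psme4 rose, while Psme1 and Psme2 had negative differences that did not pass. Psme4 (PA200) caps the core without ATP or ubiquitin. Its brightest probe set read 4961.4, 4991.9 and 2935.2 in normal and 8081.4, 8849.2 and 9315.6 in diabetic rats, with no overlap. The rise was 2.04-fold, a log2 fold change of 1.07 (SE 0.20, adjusted p = 0.014). The other probe sets gave 2.39-fold (log2 1.30, adjusted p = 0.0099) and 1.96-fold (log2 0.97, adjusted p = 0.025), and all 3 were lowest on normal rat 3 and highest on diabetic rat 3. The brightest passed in all 6 leave-one-out cases, with a highest adjusted p of 0.048 without diabetic rat 3. The study itself picked this gene from these arrays, so its rise is not independent evidence.

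Psme1 and Psme2 together form the 11S activator, which interferon induces and which works with the immunoproteasome. Psme1 read 2293.9, 3264.4 and 2467.0 in normal and 2025.4, 1783.6 and 1435.2 in diabetic rats. Every diabetic signal lay below every normal one, but the log2 difference of -0.61 did not pass (95% confidence interval -1.03 to -0.20, adjusted p = 0.079). Psme2 read 969.0, 1482.0 and 1323.0 against 1065.9, 883.1 and 940.5, with overlap in 1 diabetic rat and a difference of -0.37 (adjusted p = 0.26). The genes lie close together on chromosome 15, with 1 coding gene between them (Emc9), as Psmb8 and Psmb9 lie on chromosome 20 with the peptide transporter gene Tap1 between them. Psme3 shares its probe sets with 2 other genes, Aoc3 and G6pc1. The dimmest of these probe sets (signals of 5.1 to 67.5) lay below the filter and was not tested, and none of the others passed.

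**Figure D4:**
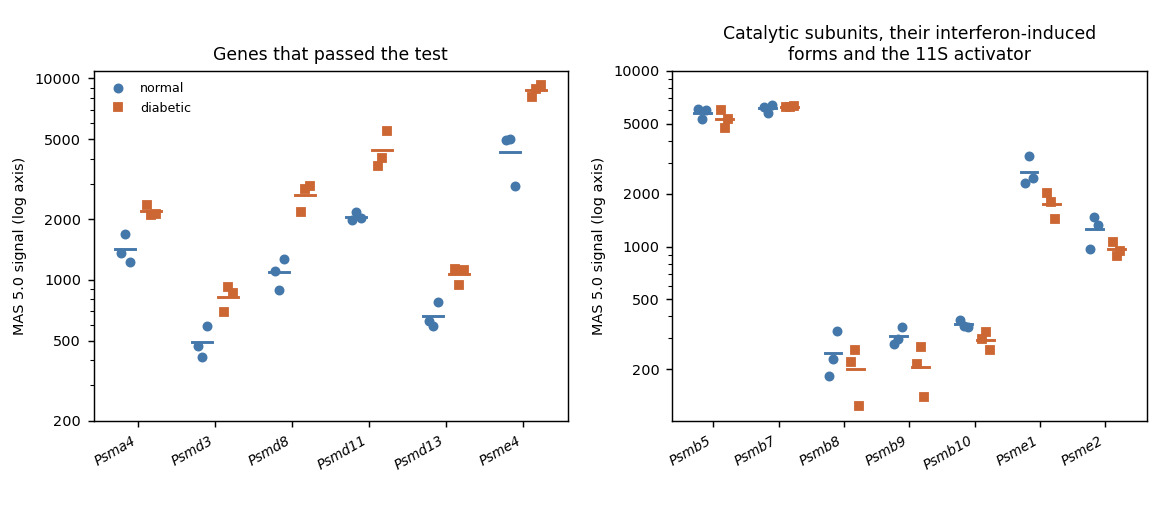
The MAS 5.0 signal of each rat on a log axis, with normal rats as blue circles, diabetic rats as orange squares and group means as bars. The 6 genes on the left have no overlap between groups; on the right Psmb5 and Psmb7 have overlapping groups, while Psme1, Psmb9 and Psmb10 have all diabetic signals below the normal ones.

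Motifs were counted in the promoters, taken as 250 bases before to 50 after the start, on both strands. Of the 36 genes 34 had an entry, and Psma7 and Psmd6 had none. The antioxidant response element core TGACNNNGC, a site of the factor family that includes Nfe2l1 and Nfe2l2, was found in 7 of 34 member promoters (20.6%) and in 12.1% of all 33469 promoters of that length. Psme4, Psmd3, Psmd1, Psmd9, Psma3, Psmb2 and Psmb5 held it, and Psme4 had its match, shown in capitals above, 55 bases before the start. The CCAAT box, a site of the factor NF-Y, was in 18 of 34 (52.9%) and in 37.5% of all. Of the 6 genes that rose, 2 held the first motif and 2 the second.

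The interferon-stimulated response element, searched as GAAA, any pair of bases and a second GAAA, was in 6 of 34 member promoters (17.6%) and in 3.92% of all. These were Psmb8, Psmb10, Psme2, Psma4, Psmb3 and Psmd7. In the sequences above, Psmb10 holds it at 73 and again at 17 bases before the start, and Psme2 holds it at 53. The 6 genes were found on both sides of 0, since Psma4 rose and Psmd7 had a difference of 0.63. The gamma-activated site TTCNNNGAA, which reads the same on both strands, was in 3 of 34 (8.82%) and in 8.87% of all. A match is a run of letters and does not show that a factor binds there.

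Genes that act with the proteasome were described in 4 lists. Of all genes tested, 3.46% were called higher and 3.55% lower. At an unadjusted p under 0.05 these shares were 12.8% and 11.9%. Among receptors, shuttles, deubiquitinases and the unfoldase Vcp with its cofactors, 4 of 16 tested genes were higher and none lower, with a median log2 fold change of 0.33 (5 higher and 1 lower at an unadjusted p under 0.05). Zfand2a, a stress-induced protein of the proteasome, read 195.7, 228.0 and 117.4 in normal and 489.8, 610.7 and 529.9 in diabetic rats, a 3.01-fold rise (log2 fold change 1.64, adjusted p = 0.0049). The others that passed were the Vcp cofactors Nploc4 (log2 fold change 0.70, adjusted p = 0.041) and Nsfl1c (0.68, adjusted p = 0.020), and Rad23b (0.55, adjusted p = 0.043), which carries ubiquitin-tagged proteins to the proteasome. In the 6 leave-one-out cases Zfand2a always passed, Rad23b never did, and Nploc4 and Nsfl1c each missed the threshold in 5 (adjusted p up to 0.13 and 0.075). Vcp itself had a difference of 0.51 with no overlap and did not pass.

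Of 10 tested transcriptional regulators of proteasome genes 2 were higher and none lower, with a median of 0.49 (4 higher and none lower at an unadjusted p under 0.05). Foxo3, a factor that insulin signalling holds out of the nucleus, read 798.8, 918.1 and 660.4 in normal and 1727.4, 1406.9 and 1724.3 in diabetic rats, a 2.04-fold rise (log2 fold change 1.04, adjusted p = 0.0078). Nfe2l2, which binds the antioxidant response element, rose by 0.89 on the log2 scale (adjusted p = 0.010). Both passed in all 6 leave-one-out cases. Nfe2l1, the factor that raises proteasome genes when the particle is short, had a difference of 0.50 and a low signal in diabetic rat 3 (1312.1, 901.9 and 949.6 against 1921.9, 1932.2 and 856.3).

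No gene passed among the 7 tested for assembly and inhibition (median -0.06) or the 18 of antigen presentation and the interferon response (median -0.11). At an unadjusted p under 0.05 the first list had 1 higher and none lower, and the second 1 each way. Log2 differences were negative for 5 and positive for 2 genes of the first list, and negative for 15 and positive for 3 of the second. Over all genes tested, 3483 were negative and 3597 positive. The inhibitor Psmf1 had a difference of 0.53 (adjusted p = 0.11) with no overlap. The interferon-induced chemokine Cxcl9 had the lowest difference of the second list, -0.88, and read 539.2, 485.0 and 801.5 in normal and 411.3, 493.6 and 164.1 in diabetic rats, lowest again on diabetic rat 3. Tap1 and Tap2, the neighbours of Psmb9 and Psmb8, had differences of -0.46 and -0.65 with overlapping or dim signals.

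**Figure D5:**
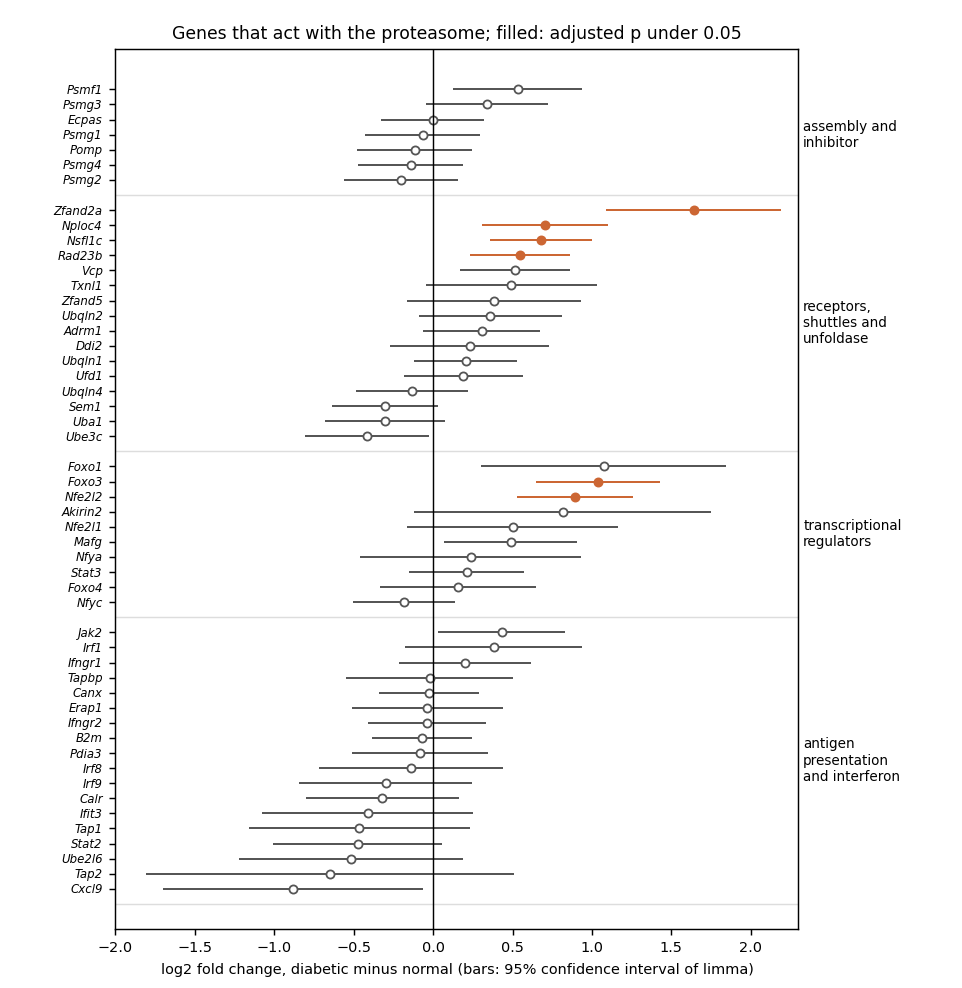
The horizontal axis is the log2 fold change (diabetic minus normal, 3 rats each) of the tested genes in 4 lists of proteasome partners, with 95% confidence intervals of limma and filled points for an adjusted p under 0.05. Filled points (4 receptors and shuttles, 2 regulators) all lie right of 0, and the 18 antigen presentation genes have none.

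The tissue matched its label, with all 14 skeletal muscle markers at a mean signal of at least 6814. Of these Casq1 and Mb were lower in diabetic muscle. Among the 14, 12 had negative and 2 positive log2 differences, with a median of -0.21. Fibroblast markers were lower in 4 of 9 tested genes (Lum, Col6a1, Col6a2 and Mfap5), and their sum was 33686 to 36414 in normal and 28361 to 29806 in diabetic rats. Of 8 endothelial markers Kdr was higher and Tie1 lower. The log2 difference was positive for 7 of the 8 and negative for 1, with a median of 0.12. Their sum was 5598 to 5931 in normal and 6160 to 6900 in diabetic rats. Over all genes tested the shares called higher and lower were 3.46% and 3.55%, and 3597 log2 differences were positive and 3483 negative. The part of these marker shifts in the proteasome signals was not tested.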

How the data were processed

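The authors extracted total RNA of each left hemidiaphragm, hybridised it to 1 array per rat and computed signals with MAS 5.0. The deposited values are these intensities on a linear scale, 1 per probe set, with array medians of 167.1 to 180.5; the scaling target is not given in the sources used here. Present calls were not used here.

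Signals under 1 were set to 1, log2 was taken, 57 control probe sets were left out, and probe sets with a mean signal above the 40th percentile (105.8) were kept. The 9519 left were fitted in limma 3.58.1 (R 4.3.3; lmFit, eBayes with a trend) with Benjamini-Hochberg adjustment. This stands in for the BAM software of the methods. The 6 arrays leave 4 residual degrees of freedom, and their number limits the precision. Code was tested on simulated data.

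Genes were named through the platform annotation and represented by their brightest probe set. The fold change is the diabetic mean signal over the normal one, and differences are on the log2 scale. Replicate numbers were not taken as pairs. Named were members that passed and the largest rise and fall of each class. Catalytic, immunoproteasome, activator and chaperone genes, genes with discordant probe sets and list genes that passed were also named. Other genes with values were chosen after those values were seen. They were Psma2, Psma3, Psma5, Psmd1, Psmd2, Psmd4, Psmd6, Psmd7, Vcp, Sem1, Psmf1, Nfe2l1, Cxcl9, Tap1, Tap2 and Lyz2. The members, lists and tests were chosen with earlier results of these data known. Other normalizations, offsets, filters, variance priors, weights, thresholds and left-out arrays were tried. Promoters came from RefSeq (GRCr8).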

Additional observations from a re-analysis of the deposited data

How the results depend on the processing

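The directions of the medians of the 6 classes (the cap taken whole) held under every alternative run, while the lid and the base were not recomputed apart. With 1 array left out in turn the medians ranged from 0.39 to 0.58 (alpha), 0.04 to 0.25 (beta), -0.53 to -0.21 (immunoproteasome), 0.30 to 0.46 (ATPase), 0.51 to 0.62 (cap) and -0.54 to -0.24 (activators). Counts of calls were less stable. With 1 array left out, 4 to 8 member probe sets, 0 to 2 alpha, 2 to 4 cap and 1 activator gene were higher, as were 1 to 3 receptors and shuttles, 2 to 3 regulators and 133 to 226 of all probe sets, with 179 to 235 lower. Psma4, Psmd3 and Psmd13 were lost without the filter on dim probe sets, which left 5 member probe sets, 0 alpha genes, 2 cap genes, 2 receptors and shuttles and 200 of all probe sets higher. They were also lost with no trend in the variance prior (4 member probe sets, 0 alpha genes, 2 cap genes, 2 receptors and shuttles), together with 1 probe set of Psme4. Quantile normalization gave 2 alpha genes and 1 ATPase, and scaling to the same median gave 0 alpha genes. A filter at the 60th percentile, or averaging the probe sets of each gene, gave 1 ATPase. At an adjusted p under 0.1, 19 member probe sets were higher and 1 lower (4 alpha, 2 ATPase and 9 cap genes higher, 1 activator lower), against 562 and 585 of all. At an unadjusted p under 0.05 the counts were 21 and 2 (4 alpha, 1 beta, 3 ATPase and 9 cap genes higher, 1 immunoproteasome and 1 activator gene lower), against 1163 and 1112 of all, with 1 assembly gene, 4 regulators and 1 antigen presentation gene higher and 1 receptor or shuttle and 1 antigen presentation gene lower.

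Rats of the 2 groups share replicate numbers, but same-numbered arrays did not deviate together (correlations of 0.10, -0.20 and -0.07), and not every array correlated best with its own number. With the replicate number as a block, 4 member probe sets, 0 alpha genes, 2 cap genes and 1 receptor or shuttle were higher, and of all probe sets 162 were higher and 170 lower. Of the named genes, 1 turned: with 1 array left out the log2 difference of Psmb7 ran from -0.014 (without normal replicate 2) to 0.066. The cause of these changes was not tested. Some of the settings also changed the number of arrays or of probe sets tested. Psmb8, with signals of 124.0 to 328.6, had the largest standard error of the member genes, 0.31 on the log2 scale.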
